A study of Homo sapiens with 18 samples.

Results

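The regulators of the switch from fetal to adult globin were followed in HUDEP1 cells, a human erythroid progenitor line immortalised from cord blood. The set was chosen by gene symbol and holds 10 named genes: BCL11A, ZBTB7A, MBD2, SOX6, NFIX, NFIA, LIN28B, IGF2BP1, IGF2BP3 and HMGA2. Of these, 9 had values among the 13358 genes of the deposited table. HMGA2 was not analysed here. All 9 passed the filter on low values (1 or more in 3 or more libraries), but BCL11A reached 1 in 11 of the 18 libraries and SOX6 in 12.

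The cells differed in GATA1, a master regulator of erythroid genes. GATA1s, an isoform without the N-terminal activation domain, was expressed by clones 1D5 and 1KI9, and full-length GATA1 by clone FL. Each clone was sampled at day 4 of differentiation and in expansion, with 3 replicates per group and 18 libraries in all. All groups received doxycycline at 1 μg/mL, stem cell factor at 50 ng/mL and erythropoietin at 3 U/mL. Expansion medium also held 1 μM dexamethasone, and differentiation medium held serum, insulin, heparin and holo-transferrin. Full-length GATA1 was represented by 1 clone, so genotype and clone cannot be told apart, and the labels do not say whether replicates were separate cultures.

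BCL11A, ZBTB7A and MBD2 act in adult red cells to silence the gamma-globin genes HBG1 and HBG2, with much of that silencing passing through the NuRD chromatin complex. SOX6 works beside BCL11A, and the nuclear factors NFIX and NFIA also repress gamma globin. LIN28B belongs to the fetal programme. It is an RNA-binding protein that blocks maturation of the let-7 microRNAs and lowers BCL11A protein, and the fetal RNA-binding proteins IGF2BP1 and IGF2BP3 are let-7 targets, of which IGF2BP1 also lowers BCL11A when it is overexpressed in adult cells.

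Expression is given in the deposited unit, which was TPM in expansion and a TPM-like value with a further, unstated scaling at day 4. The columns summed to between 814583 and 1081251 at day 4 and to between 943734 and 950736 in expansion. Differences are log2 of (value + 1), tested over all genes with limma, with Benjamini-Hochberg adjustment and a threshold of 0.05. At day 4 the median gene stood 0.26 above FL in 1D5 and 0.32 above FL in 1KI9, and with median-of-ratios scaling these medians were -0.03 and -0.02. Erythroid genes had values in every group. ALAS2, an enzyme of heme synthesis, averaged 626.9 ± 22.2 in 1D5 and 357.2 ± 3.98 in 1KI9 at day 4, against 2144 ± 69.3 in FL (SD, n = 3 each), and SLC4A1, the anion exchanger of the red cell membrane, averaged 354.7 ± 9.44 and 212.8 ± 4.04 against 1368 ± 18.3 in FL. GATA1 averaged 1059 ± 37.5 and 925 ± 21.1 against 230.7 ± 8.75 in FL, and these gene-level values do not separate its isoforms. Of 7 monocyte markers, 4 had values, summing to between 331.8 and 418.7 in the GATA1s clones at day 4 against 44.3 to 48.2 in FL, most of it CD68, and CSF1R was listed at 0 in FL. The B-cell gene CD79A, the T-cell gene CD3D and the megakaryocyte gene GP9 were listed at 0 throughout expansion. Of 4 megakaryocyte markers 2 had values, GP9 and ITGA2B, and ITGA2B was called higher in both GATA1s clones in expansion. The sum of the 2 was low there, at 0.70 to 0.90 in 1D5 and 2.49 to 2.88 in 1KI9 against 0.10 to 0.23 in FL. In FL at day 4 it was at most 0.89. ITGA2B thus passed the filter on low values through the GATA1s clones, and its call is a description only. The part of these shifts in the results below was not tested. In bulk RNA, fewer expressing cells and less RNA per cell cannot be told apart.

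The regulators spanned a wide range of levels. On the length-normalised TPM scale in expansion, IGF2BP1 stood highest in FL, at 65.5 ± 7.07 (SD, n = 3), ahead of IGF2BP3 at 48.5 ± 0.526, with no overlap between their libraries. LIN28B at 33.96 ± 2.68 and MBD2 at 31.4 ± 6.05 came next and overlapped. NFIA at 14.9 ± 0.817 lay above ZBTB7A at 12.3 ± 1.74, whose highest library fell just short of the lowest for NFIA. ZBTB7A, BCL11A at 9.89 ± 2.52 and NFIX at 9.25 ± 1.14 were not separated beyond their spread, although all ZBTB7A libraries were above those of NFIX. SOX6 was lowest at 0.540 ± 0.292. At day 4 the order in FL was different, with MBD2 at 29.1 ± 3.49 and ZBTB7A at 22.5 ± 1.33 on top, IGF2BP3 at 16.3 ± 0.440 and IGF2BP1 at 10.9 ± 1.04 below them, and BCL11A last at 1.04 ± 0.163, overlapping SOX6 at 1.47 ± 0.342.

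**Figure D1:**
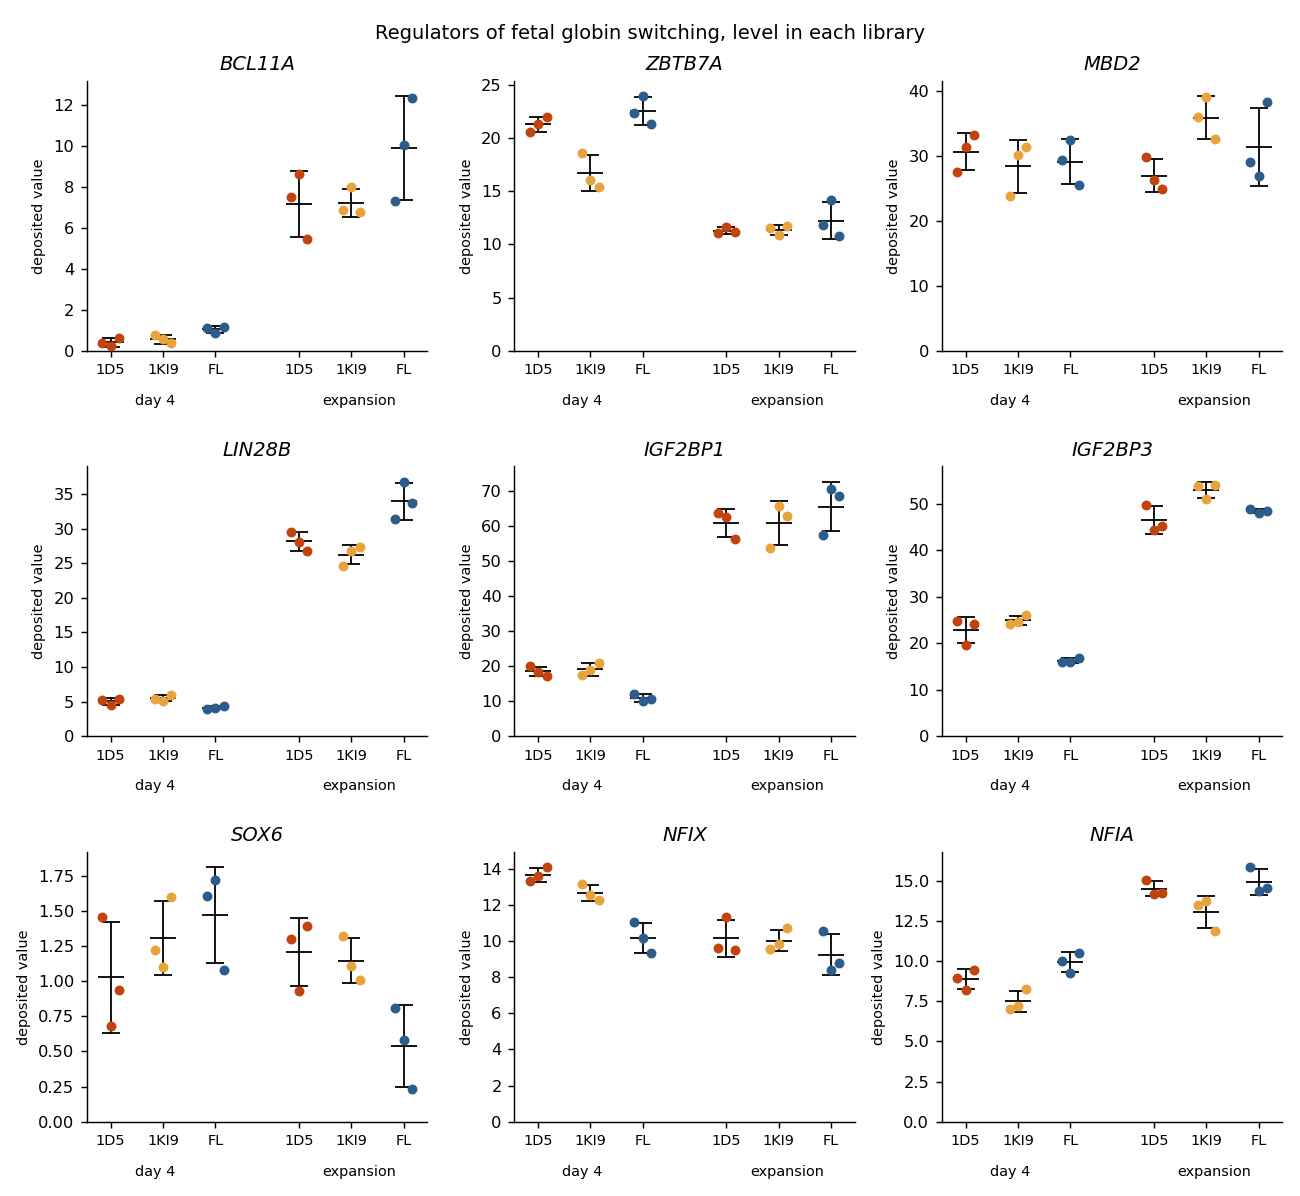
Deposited value of each regulator in every library (points), with the group mean and SD (black bars, n = 3), for clones 1D5, 1KI9 and FL at day 4 and in expansion. BCL11A lay at 1.17 or below in all 9 day-4 libraries, and LIN28B, IGF2BP1 and IGF2BP3 were also lower there than in expansion, while ZBTB7A was higher.

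Several of the regulators carry matches to the let-7 microRNAs, which are shown because LIN28B, IGF2BP1 and IGF2BP3 changed together. The microRNAs themselves were not measured. In the RefSeq table (GRCh38.p14) the let-7 members and miR-98-5p share one seed, bases 2 to 8 of the mature microRNA, printed here in capitals.
hsa-let-7a-5p: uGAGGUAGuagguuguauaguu
hsa-let-7g-5p: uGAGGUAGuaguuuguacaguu
hsa-miR-98-5p: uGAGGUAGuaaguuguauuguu

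The DNA letters that pair with this seed are CTACCTC. They were searched on the sense strand of the longest 3′ UTR of each gene in GENCODE release 29 (GRCh38). LIN28B and IGF2BP1 each held 4 matches, in 3′ UTRs of 4549 and 6206 bases, and 10 of the 10946 tested genes with a 3′ UTR held at least 4 (0.0914%). MBD2 held 3, against 0.201% of genes with at least 3. IGF2BP3 and NFIA held 1 each, and 10.8% of genes had at least 1. BCL11A, ZBTB7A, SOX6 and NFIX held none in this window. A match is a run of letters and says nothing of binding, and these shares were not matched for 3′ UTR length. The 19 other genes with at least 3 matches had median log2 differences against FL at day 4 of 0.22 in 1D5 and 0.32 in 1KI9. All genes had 0.26 and 0.32. At day 4 against expansion the 19 had -0.40 in 1D5, -0.42 in 1KI9 and -0.53 in FL, against -0.15, -0.25 and -0.38 for all genes. The part of let-7 in these values was not tested. The matches of the fetal RNA-binding proteins are given below in 30-base windows with the match in capitals.
LIN28B, chr6:105078816-105078845, plus strand: ggttgcaaagtCTACCTCatgcaagtatag
LIN28B, chr6:105081243-105081272, plus strand: gatgatagtaaCTACCTCtgagtttgacac
LIN28B, chr6:105081425-105081454, plus strand: acagcaaaaggCTACCTCatagttgataca
LIN28B, chr6:105082864-105082893, plus strand: gatggtgttgaCTACCTCttgaatcacatc
IGF2BP1, chr17:49051065-49051094, plus strand: tgcgaagtaaaCTACCTCaaggtatgaagt
IGF2BP1, chr17:49053702-49053731, plus strand: agtgctagtaaCTACCTCacagagccccag
IGF2BP1, chr17:49054356-49054385, plus strand: aaatggattaaCTACCTCaatccttacagt
IGF2BP1, chr17:49055001-49055030, plus strand: ttttgttttatCTACCTCttagcaaaacaa
IGF2BP3, chr7:23311784-23311813, minus strand: tttttactcaaCTACCTCaggtattcagta
An A follows the match in 2 of the 4 LIN28B windows, in 3 of the 4 IGF2BP1 windows and in the IGF2BP3 window, the base that extends a seed match to its longest form.

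The fetal RNA-binding proteins and BCL11A were lower at day 4 than in expansion in all 3 clones, and ZBTB7A was higher. At day 4 against expansion, 7 of the 9 regulators passed the test in 1D5 (background of all genes 78.9%), 8 in 1KI9 (74.4%) and 7 in FL (83.7%), so the counts were near the background. Over all genes, 3519 were higher and 5176 lower in 1D5, 2445 and 5752 in 1KI9, and 2919 and 6303 in FL. With median-of-ratios scaling the splits were 4387 and 4374 in 1D5, 4144 and 3908 in 1KI9, and 4636 and 4425 in FL. By size, the falls of LIN28B lay in the lowest 0.844%, 0.890% and 0.481% of all genes in 1D5, 1KI9 and FL, and those of BCL11A in the lowest 0.399%, 0.345% and 1.44%. BCL11A passed the filter on low values through expansion, the condition where it was high, so its rank among the falls is a description only. Day 4 and expansion values were scaled separately by the authors, and condition cannot be told apart from medium or time.

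LIN28B had 5.25, 4.50 and 5.33 in 1D5 at day 4, against 29.58, 28.11 and 26.83 TPM in expansion. In 1KI9 it had 5.41, 5.11 and 6.03 at day 4, against 24.66, 26.79 and 27.32 TPM in expansion. In FL it had 3.88, 4.09 and 4.39 at day 4, against 31.45, 36.78 and 33.65 TPM in expansion. No day-4 library came near the expansion libraries of its clone. The day-4 mean was 17.8% of the expansion mean in 1D5, 21.0% in 1KI9 and 12.1% in FL. The log2 difference was -2.28 ± 0.08 (SE) in 1D5 (limma adjusted p = 4.79e-14), -2.07 ± 0.08 in 1KI9 (adjusted p = 3.25e-13) and -2.77 ± 0.08 in FL (adjusted p = 2.31e-15).

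IGF2BP1, which binds and stabilises messenger RNAs in fetal and dividing cells, followed LIN28B. It had 19.90, 18.44 and 17.31 in 1D5 at day 4, against 63.75, 62.50 and 56.25 TPM in expansion. In 1KI9 the day-4 libraries had 17.37, 18.82 and 20.95, against 53.77, 65.74 and 62.72 TPM in expansion. In FL they had 12.11, 10.12 and 10.60, against 57.43, 70.58 and 68.52 TPM in expansion. The groups did not overlap in any clone, and the day-4 mean was 30.5%, 31.4% and 16.7% of the expansion mean in 1D5, 1KI9 and FL. The log2 differences were -1.66 ± 0.10, -1.62 ± 0.10 and -2.48 ± 0.10 (SE; largest limma adjusted p = 5.89e-11).

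IGF2BP3, its paralog, fell as well. Day-4 libraries ran from 19.68 to 24.89 in 1D5, 24.09 to 26.06 in 1KI9 and 16.01 to 16.80 in FL, against 44.37 to 49.85, 50.94 to 54.13 and 47.94 to 48.99 TPM in expansion. These were 49.3%, 47.0% and 33.6% of the expansion means. The log2 differences were -0.995 ± 0.07, -1.06 ± 0.07 and -1.52 ± 0.07 (SE; largest limma adjusted p = 5.50e-10). The exons of IGF2BP3 share 1521 bases with MALSU1 on the opposite strand, and whether reads were counted by strand is unstated here, so reads of the pair cannot be told apart.

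BCL11A, the central repressor of gamma globin, fell to 0.36, 0.23 and 0.64 in 1D5 at day 4, against 7.49, 8.60 and 5.43 TPM in expansion. In 1KI9 it had 0.79, 0.55 and 0.36 at day 4, against 6.86, 7.98 and 6.79 TPM in expansion. In FL it had 1.10, 0.86 and 1.17 at day 4, against 7.30, 10.03 and 12.33 TPM in expansion. Only in FL did any day-4 library reach 1. The day-4 mean was 5.72%, 7.86% and 10.6% of the expansion mean in 1D5, 1KI9 and FL. On the log2 scale, which understates changes of low genes, the differences were -2.53 ± 0.17, -2.40 ± 0.17 and -2.39 ± 0.17 (SE; largest limma adjusted p = 4.57e-10).

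ZBTB7A, the second major repressor of gamma globin, moved the other way. Its day-4 libraries ran from 20.53 to 22 in 1D5, from 15.43 to 18.62 in 1KI9 and from 21.28 to 23.93 in FL, against 11.06 to 11.67, 10.85 to 11.73 and 10.75 to 14.16 TPM in expansion, with no overlap in any clone. The log2 differences were 0.86 ± 0.09, 0.51 ± 0.09 and 0.83 ± 0.09 (SE; largest limma adjusted p = 3.39e-05). Within each library, BCL11A stood at 0.0108 to 0.0550 of ZBTB7A at day 4, against 0.486 to 1.15 in expansion, a ratio that no scaling of a library can move.

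Among the nuclear factors, NFIA fell in all 3 clones, by 0.65 ± 0.08 in 1D5, 0.72 ± 0.08 in 1KI9 and 0.54 ± 0.08 in FL on the log2 scale (SE; largest limma adjusted p = 4.23e-06). In FL the NFIA fall lay at the 42.9 percentile of all genes. The call there was lost with median-of-ratios scaling, at -0.11, and when scaled without globins and mitochondrial genes, at -0.19. NFIX rose in 1D5, by 0.40 ± 0.09 (limma adjusted p = 4.19e-04), and in 1KI9, by 0.31 ± 0.09 (limma adjusted p = 0.00372), with 0.13 ± 0.09 in FL (limma adjusted p = 0.175, and 1.6e-05 with median-of-ratios scaling, at 0.56). NFIX in FL also passed when scaled without globins and mitochondrial genes, at 0.50, and without expansion FL replicate 1, at 0.22. SOX6 rose in FL, by 0.69 ± 0.15 (limma adjusted p = 4.55e-04), at 1.61, 1.72 and 1.08 at day 4 against 0.81, 0.58 and 0.23 TPM in expansion. The log2 differences of SOX6 in the GATA1s clones were -0.13 ± 0.15 in 1D5 and 0.10 ± 0.15 in 1KI9, and neither passed. MBD2, which joins methylated DNA to the NuRD complex, passed in 1KI9, at -0.33 ± 0.13 (limma adjusted p = 0.0254), and this turned to 0.02 when libraries were scaled without globins and mitochondrial genes. The call was also lost with median-of-ratios scaling, at -0.04, without day-4 1KI9 replicate 1, at -0.21, and without expansion 1KI9 replicate 1, at -0.33, or replicate 2, at -0.27. In FL the MBD2 difference was -0.10, and with median-of-ratios scaling it was 0.36 and passed. In 1D5 it was 0.18 and did not pass as deposited. There it passed with median-of-ratios scaling, at 0.34, and when scaled without globins and mitochondrial genes, at 0.48.

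**Figure D2:**
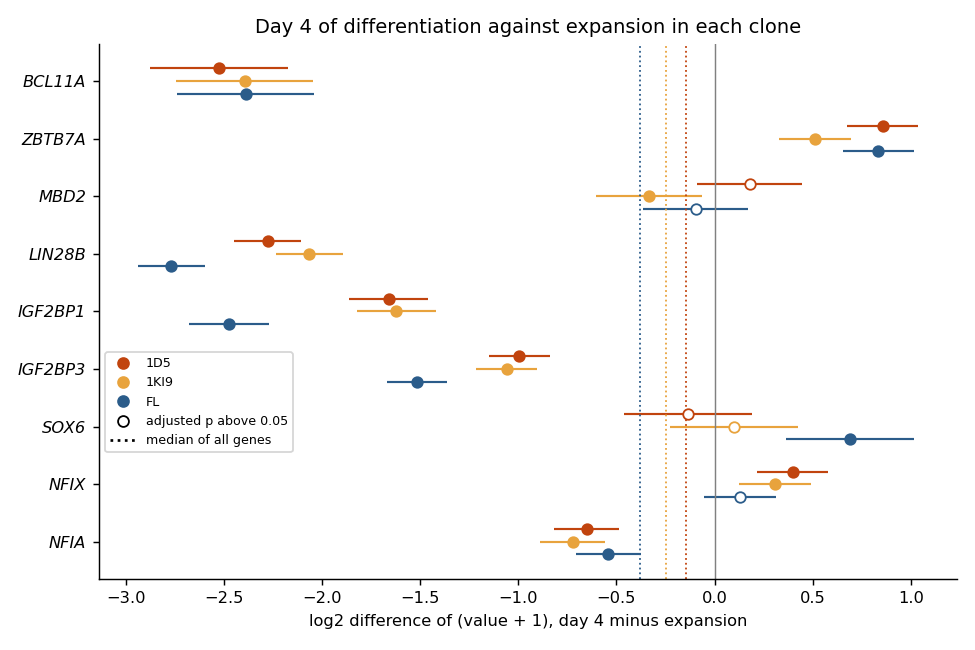
Log2 difference of (value + 1), day 4 minus expansion, for each regulator in clones 1D5, 1KI9 and FL. Bars are 95% confidence intervals from the limma model, filled points passed the adjusted threshold of 0.05, and dotted lines mark the median of all genes in each clone. The FL values of LIN28B (-2.77), IGF2BP1 (-2.48) and IGF2BP3 (-1.52) lie left of those of both GATA1s clones.

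At day 4 the GATA1s clones held more IGF2BP1 and IGF2BP3 RNA than FL, and less BCL11A RNA. In 1D5 5 of the 9 regulators passed against FL (background 71.1%), in 1KI9 7 passed (background 76.4%), and in both clones with the same sign 5 passed (background 65.5%). LIN28B, IGF2BP1, IGF2BP3 and NFIX were higher and BCL11A was lower in both. Of all genes, 51.2% were higher and 14.3% lower in both clones, and the share of the regulators called was near the background. With median-of-ratios scaling 2930 genes were higher and 3469 lower in both, against 5670 and 1585 as deposited. Both clones are set against the same 3 FL libraries.

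IGF2BP1 had 19.90, 18.44 and 17.31 in 1D5 and 17.37, 18.82 and 20.95 in 1KI9 at day 4, against 12.11, 10.12 and 10.60 in FL. Every GATA1s library was above every FL library. The log2 differences were 0.71 ± 0.10 in 1D5 (SE; limma adjusted p = 3.42e-06) and 0.75 ± 0.10 in 1KI9 (adjusted p = 1.49e-06). They were 0.45 and 0.43 above the all-gene medians, at the 83.3 and 80.2 percentiles, and with median-of-ratios scaling they were 0.41 and 0.39 and still passed.

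IGF2BP3 had 24.89, 19.68 and 24.20 in 1D5 and 24.09, 24.55 and 26.06 in 1KI9, against 16.01, 16.07 and 16.80 in FL, again with no overlap. The log2 differences were 0.46 ± 0.07 in 1D5 (SE; limma adjusted p = 2.16e-05) and 0.58 ± 0.07 in 1KI9 (adjusted p = 1.12e-06), which was 0.20 and 0.26 above the all-gene medians. With median-of-ratios scaling the call held in 1KI9, at 0.21, and was lost in 1D5, at 0.15 (adjusted p = 0.0634, within a range of 5.84e-07 to 0.0634 over the alternatives).

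LIN28B was above FL by 0.23 ± 0.08 in 1D5 (SE; limma adjusted p = 0.0155) and by 0.35 ± 0.08 in 1KI9 (adjusted p = 8.16e-04), but with median-of-ratios scaling these values were -0.04 and 0.03 and neither passed. Its day-4 libraries, 4.50 to 5.33 in 1D5 and 5.11 to 6.03 in 1KI9 against 3.88 to 4.39 in FL, did not overlap. Its shift was that of the median gene, at the 47.5 and 52.4 percentiles of all genes. In 1D5 the call was also lost without 1D5 replicate 1 or 3 or FL replicate 1, with adjusted p between 0.0577 and 0.0668 (0.00473 to 0.57 over all alternatives). NFIX libraries ran from 13.31 to 14.10 in 1D5 and from 12.26 to 13.17 in 1KI9, against 9.35 to 11.05 in FL. Its log2 differences of 0.39 ± 0.09 and 0.29 ± 0.09 (largest limma adjusted p = 0.00554) became 0.09 and -0.07 with median-of-ratios scaling, and neither passed.

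BCL11A had 0.36, 0.23 and 0.64 in 1D5 and 0.79, 0.55 and 0.36 in 1KI9 at day 4, against 1.10, 0.86 and 1.17 in FL, with no overlap. It was lower by 0.54 ± 0.17 in 1D5 on the log2 scale (SE; limma adjusted p = 0.00741) and by 0.39 ± 0.17 in 1KI9 (adjusted p = 0.0415). The 1KI9 call was lost with no filter on low values (adjusted p = 0.053) and without 1KI9 replicate 2 or 3 or FL replicate 1 or 3 (adjusted p of at most 0.163). All 6 GATA1s libraries were at 0.79 or below, and BCL11A passed the filter on low values through expansion.

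Of the other repressors, ZBTB7A was lower in 1KI9, with 18.62, 16.06 and 15.43 against 22.37, 23.93 and 21.28 in FL, a log2 difference of -0.41 ± 0.09 (SE; limma adjusted p = 3.12e-04). In 1D5 it had 20.53, 21.34 and 22, overlapping FL, with a log2 difference of -0.08 ± 0.09 that passed only with median-of-ratios scaling, at -0.40. NFIA was likewise lower in 1KI9, at 7.04, 7.21 and 8.27 against 10.02, 9.28 and 10.51 in FL, by 0.36 ± 0.08 (limma adjusted p = 4.37e-04), and its log2 difference in 1D5 was -0.15 ± 0.08 (limma adjusted p = 0.107), or -0.45 and called with median-of-ratios scaling. Relative to the all-gene median, both genes were lower in both clones, at -0.34 and -0.73 for ZBTB7A and -0.41 and -0.68 for NFIA in 1D5 and 1KI9. SOX6 and MBD2 did not pass in either clone as deposited, with 95% intervals from -0.62 to 0.23 for SOX6 and from -0.31 to 0.34 for MBD2 over both clones. SOX6 in 1D5 was -0.29 and passed with median-of-ratios scaling, at -0.51, without 1D5 replicate 1, at -0.44, and without FL replicate 3, at -0.41. MBD2 in 1KI9 was -0.04 and passed with median-of-ratios scaling, at -0.41.

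**Figure D3:**
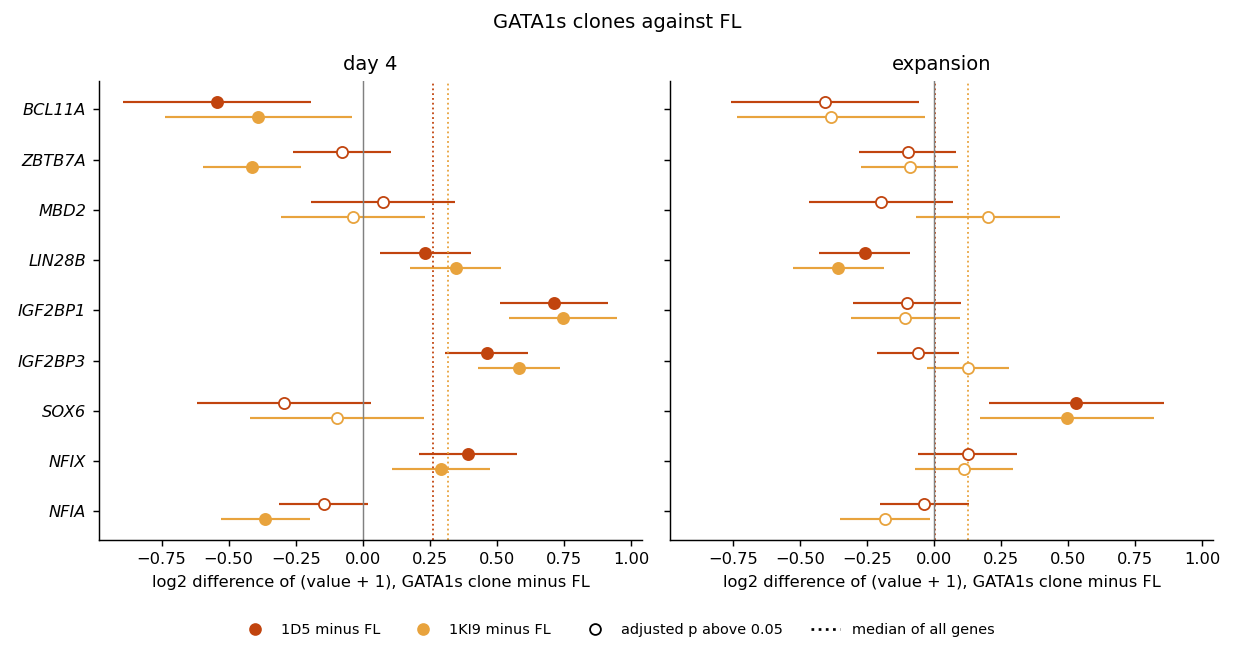
Log2 difference of (value + 1), GATA1s clone minus FL, for each regulator at day 4 (left) and in expansion (right). Bars are 95% confidence intervals from the limma model, filled points passed the adjusted threshold of 0.05, and dotted lines mark the median of all genes, which at day 4 lay at 0.26 in 1D5 and 0.32 in 1KI9. At day 4 the IGF2BP1 points lie at 0.71 and 0.75, and in expansion at -0.10 and -0.11.

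In expansion fewer regulators passed between genotypes. The monocyte markers summed to 49.66 to 63.69 in 1D5 and 204.2 to 250.7 in 1KI9 there, against 13.83 to 49.62 in FL. The stromal gene COL1A1 was called higher in both clones in both conditions, at 3.29 or less on average. The stromal markers with values summed to at most 0.24 in FL. COL1A1 thus passed the filter on low values through the GATA1s clones, where it was high, and its call is a description only. The part of these genes in the results was not tested. In 1D5 2 of 9 passed against FL (background 31.1%), in 1KI9 2 passed (background 59.6%), and 2 passed in both clones (background 26.4%): LIN28B, lower, and SOX6, higher. With median-of-ratios scaling 6 passed in 1KI9, where that scaling changed the split over all genes to 3005 higher and 4059 lower, against 4530 and 2046. LIN28B had 29.58, 28.11 and 26.83 TPM in 1D5 and 24.66, 26.79 and 27.32 TPM in 1KI9, against 31.45, 36.78 and 33.65 TPM in FL, with no overlap. It was lower by 0.26 ± 0.08 in 1D5 (SE; limma adjusted p = 0.0205) and by 0.36 ± 0.08 in 1KI9 (adjusted p = 0.00100). In 1D5 that call was lost in a fit of the compared libraries alone (adjusted p = 0.0756, within a range of 0.00141 to 0.0932) scaled without globins and mitochondrial genes, and without 1D5 replicate 2 or 3 or FL replicate 2.

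SOX6 had 1.30, 0.93 and 1.39 TPM in 1D5 and 1.32, 1.11 and 1.01 TPM in 1KI9, against 0.81, 0.58 and 0.23 TPM in FL. The groups did not overlap. SOX6 exons share 219 bases with C11orf58 on the opposite strand and 89 with MIR6073 on the same strand, where reads cannot be told apart if strand was not used. The log2 differences of SOX6 were 0.53 ± 0.15 (SE; limma adjusted p = 0.0140) and 0.49 ± 0.15 (adjusted p = 0.0106). Without FL replicate 3, the lowest library, they were 0.38 and 0.34 and neither passed, and the 1D5 call was also lost without 1D5 replicate 3 (adjusted p = 0.0534). IGF2BP1 and IGF2BP3 had log2 differences between -0.11 and 0.13 in expansion. With median-of-ratios scaling IGF2BP1 in 1KI9 was -0.32 and passed (adjusted p = 0.00323), and IGF2BP3 in 1KI9 turned to -0.08 without passing. BCL11A had -0.41 ± 0.17 in 1D5 (adjusted p = 0.0727) and -0.38 ± 0.17 in 1KI9 (adjusted p = 0.0554). Both passed with median-of-ratios scaling, at -0.43 and -0.57, and without FL replicate 1, at -0.59 and -0.57, and the 1D5 value also passed without 1D5 replicate 2, at -0.53. Over the alternatives BCL11A ran from -0.589 to -0.243 in 1D5 and from -0.566 to -0.224 in 1KI9.

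The difference between GATA1s and FL changed with condition for 4 of the 9 regulators (background 65.1%, split 4996 higher and 2174 lower over all genes, or 3416 and 3378 with median-of-ratios scaling). This test compared the mean of both clones against FL between day 4 and expansion. IGF2BP1 gave 0.83 ± 0.12 (log2, SE; limma adjusted p = 8.51e-06), LIN28B 0.60 ± 0.10 (adjusted p = 4.60e-05), IGF2BP3 0.49 ± 0.09 (adjusted p = 1.31e-04) and SOX6 -0.71 ± 0.19 (adjusted p = 0.00331). The median gene gave 0.21. With median-of-ratios scaling, which brought that median to 0.01, the 4 values were 0.62, 0.42, 0.27 and -0.86 and all still passed. ZBTB7A and NFIA passed as well with that scaling, for a count of 6, at -0.39 (adjusted p = 0.00278) against -0.15 as deposited, and at -0.37 (adjusted p = 0.00455) against -0.15. ZBTB7A also passed without expansion FL replicate 2, and NFIX without that library, day-4 FL replicate 1 or expansion 1D5 replicate 2. The falls of LIN28B, IGF2BP1 and IGF2BP3 at day 4 were larger in FL than in the mean of the GATA1s clones, and SOX6 was called higher at day 4 in FL but in neither GATA1s clone.

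Between the GATA1s clones, 1 regulator passed at day 4 (background 19.2%) and 1 in expansion (background 40.6%). At day 4 ZBTB7A was lower in 1KI9 than in 1D5, by 0.34 ± 0.09 on the log2 scale (limma adjusted p = 0.0111), a call lost without 1KI9 replicate 3 (adjusted p = 0.0664). In expansion MBD2 was higher in 1KI9, with 36.03, 39.19 and 32.58 TPM against 29.86, 26.27 and 24.91 TPM in 1D5. Its log2 difference was 0.40 ± 0.13 (limma adjusted p = 0.0188), and with median-of-ratios scaling it was 0.22 and did not pass (adjusted p = 0.187, within a range of 0.0150 to 0.187). The MBD2 call was also lost without 1D5 replicate 2 or 3 or without 1KI9 replicate 2. With median-of-ratios scaling, LIN28B, at -0.27, and NFIA, at -0.31, passed as lower in 1KI9 in expansion. As deposited they had -0.10 and -0.15 and did not pass. NFIA at day 4 had -0.22 as deposited, without passing. It passed with median-of-ratios scaling, at -0.27, and without 1D5 replicate 2, at -0.27, or 1KI9 replicate 3, at -0.28.

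Ratios of regulators within a library do not depend on how that library was scaled. LIN28B stood at 0.244 to 0.311 of IGF2BP1 in the 6 GATA1s libraries at day 4, against 0.320 to 0.414 in FL. In expansion the same ratio was 0.408 to 0.477 in the GATA1s libraries and 0.491 to 0.548 in FL. LIN28B over IGF2BP3 was 0.208 to 0.231 at day 4 in the GATA1s libraries against 0.242 to 0.261 in FL, and 0.458 to 0.634 in expansion against 0.642 to 0.767 in FL. LIN28B was therefore lower relative to both IGF2BP genes in every GATA1s library of either condition. IGF2BP1 over IGF2BP3 overlapped between genotypes, at 0.715 to 0.937 against 0.630 to 0.756 in FL at day 4, and at 0.998 to 1.41 against 1.17 to 1.47 in expansion. NFIX over NFIA was 1.48 to 1.87 at day 4 in the GATA1s libraries against 0.890 to 1.10 in FL, and overlapped in expansion, at 0.641 to 0.901 against 0.584 to 0.665. These ratios were chosen after values were seen, and no test was run on them.

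**Figure D4:**
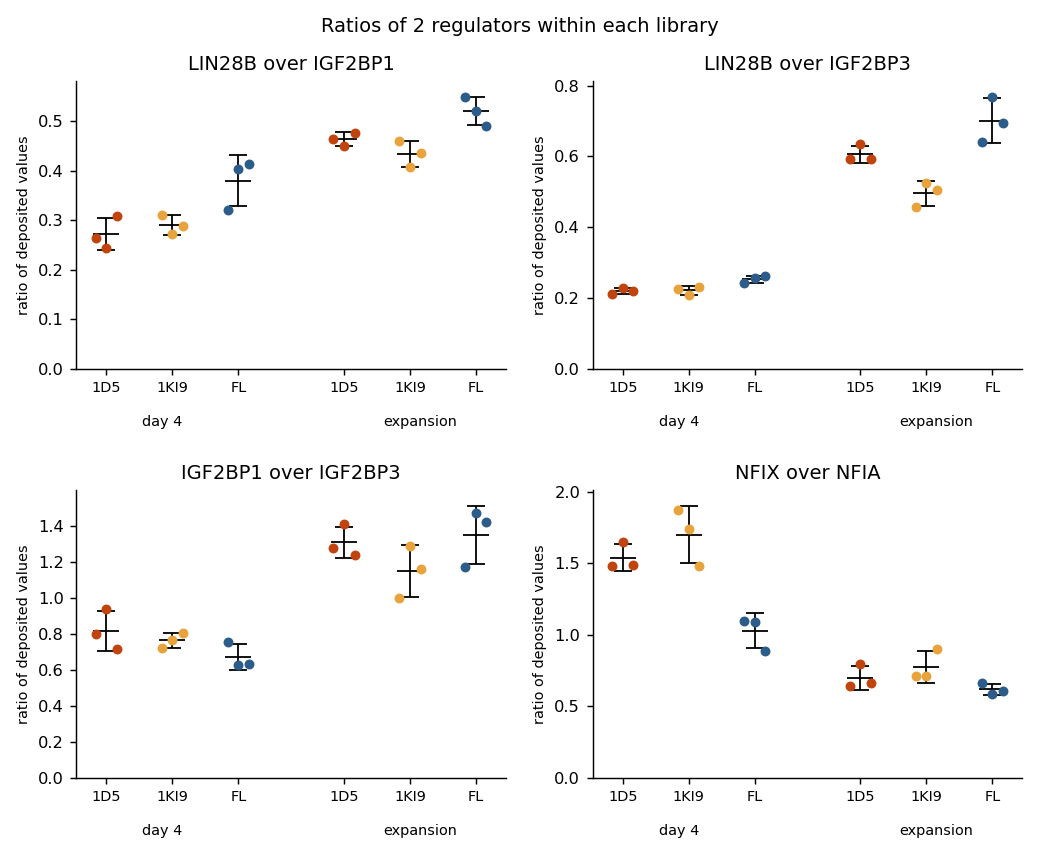
Ratio of the deposited values of 2 regulators within each library (points), with the group mean and SD (black bars, n = 3), by clone and condition. LIN28B over IGF2BP1 and over IGF2BP3 lies lower in every 1D5 and 1KI9 library than in any FL library of the same condition, and NFIX over NFIA separates the genotypes at day 4, at 1.48 or more against 1.10 or less.

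The NuRD subunits as a list lay at the shift of the median gene. Of 13 NuRD subunits, the chromatin complex recruited by BCL11A and ZBTB7A, 8 were higher and 0 lower in both clones at day 4 (51.2% and 14.3% of all genes; median log2 difference 0.30, against 0.29 for all genes), and 1 was higher and 4 lower with median-of-ratios scaling. The subunit that stayed higher was CHD4, the remodelling ATPase of the complex, at 202.0 ± 8.51 in 1D5 and 195.6 ± 4.20 in 1KI9 against 96.5 ± 3.40 in FL (SD, n = 3 each). Of 9 other corepressors of gamma globin, 3 were higher (DNMT1, EHMT2 and TRIM28) and 0 lower, and with median-of-ratios scaling 0 were higher and 4 lower. In expansion GATAD2A, a NuRD subunit, was lower and none of the other corepressors was called in both clones (17.5% of all genes higher and 8.98% lower).

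Of 8 regulators upstream of the repressors, 1 was higher and 3 lower in both clones at day 4 (51.2% and 14.3% of all genes). MYB, a driver of progenitor growth that restrains gamma globin, stood at 72.7 ± 4.20 in 1D5 and 111.5 ± 5.84 in 1KI9 against 24.7 ± 0.497 in FL. KLF1, the erythroid factor that activates BCL11A, was lower, at 218.5 ± 17.9 and 193.8 ± 17.6 against 426.1 ± 26.7 in FL. EIF2AK1, the heme-regulated kinase whose loss raises gamma globin, was lower as well, at 149.7 ± 8.40 and 126.0 ± 1.68 against 328.6 ± 13.1 in FL. HIC2, a fetal repressor of BCL11A, had 4.98 ± 0.285 and 4.93 ± 0.210 against 7.73 ± 0.533 in FL, and its 3′ UTR also held 4 let-7 seed matches. These 4 calls kept their direction under both other scalings, while with median-of-ratios scaling 7 of the 8 were lower. In expansion ATF4 alone was called in both clones, lower (8.98% of all genes).

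Of 8 tested genes of let-7 processing, 5 were higher and 0 lower in both clones at day 4 (51.2% and 14.3% of all genes), with a median log2 difference of 0.52 against 0.29 for all genes. TUT4, the uridylyl transferase that acts on let-7 precursors, stood at 16.7 ± 1.74 in 1D5 and 20.5 ± 1.84 in 1KI9 against 8.21 ± 0.796 in FL, and XPO5, the exporter of microRNA precursors, at 22.7 ± 2.69 and 27.6 ± 1.75 against 11.5 ± 1.74 in FL. With median-of-ratios scaling these 2 stayed higher in both clones, and 2 of the list were lower. The cleaving enzymes DICER1 and DROSHA were the others with the largest differences, at 11.2 ± 2.66 and 16.1 ± 2.02 against 7.83 ± 0.606 in FL and at 17.1 ± 1.96 and 20.1 ± 0.825 against 12.1 ± 0.169 in FL. In expansion none of the 8 was called in both clones (26.4% of all genes).

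Of 11 other let-7 targets, 2 were higher and 5 lower in both clones at day 4 (51.2% and 14.3% of all genes). With median-of-ratios scaling 2 were higher and 8 lower, when 2930 of all genes were higher and 3469 lower. IGF1R, a growth factor receptor, had 12.01 ± 0.577 in 1D5 and 15.04 ± 1.82 in 1KI9 against 6.23 ± 0.254 in FL, and TRIM71 was also higher at values near 1. IGF2BP2, the third member of the IGF2BP family, was lower in both clones under each of the 3 scalings, at 6.52 ± 0.565 and 6.12 ± 0.325 against 12.1 ± 0.396 in FL, with log2 differences of -0.80 ± 0.07 and -0.88 ± 0.07 (SE; largest limma adjusted p = 2.36e-08). CDC34 and MYC were lower too, MYC at 118.7 ± 4.61 and 102.1 ± 4.42 against 175.2 ± 13.1 in FL. In expansion 1 was higher (CDC34) and 3 lower (CCND2, MYC and CDC25A) in both clones, against 17.5% and 8.98% of all genes. Among 7 tested relatives of the regulators, 4 were higher and IGF2BP2 lower in both clones at day 4 (51.2% and 14.3% of all genes). SOX13, of the SOX family, had 1.21 ± 0.171 and 1.057 ± 0.0777 against 0.0867 ± 0.0208 in FL. It passed the filter on low values through the GATA1s clones, where it was high, so its call is a description only. NFIC had log2 differences of 0.43 ± 0.10 and 0.40 ± 0.10 (SE), not called with median-of-ratios scaling. MBD1 and MBD3 were not called with that scaling either. In expansion MBD1 alone was called in both clones, higher (17.5% of all genes).

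**Figure D5:**
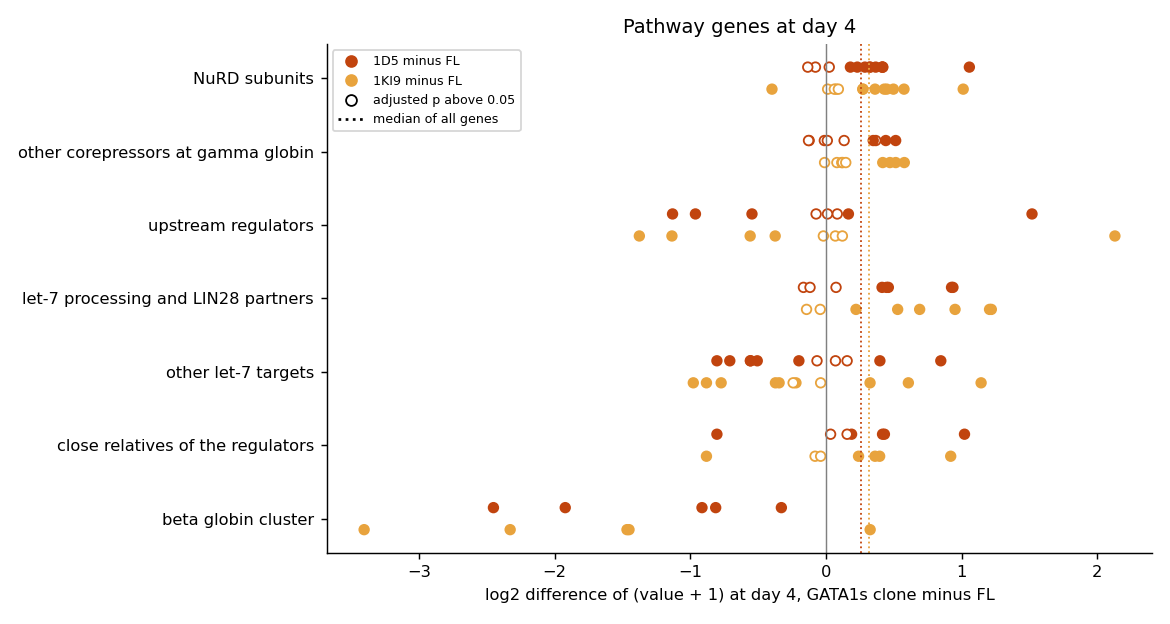
Log2 difference of (value + 1) at day 4, GATA1s clone minus FL, for each tested gene of the pathway lists (1 point per gene and clone). Filled points passed the adjusted threshold of 0.05 and dotted lines mark the median of all genes, 0.26 in 1D5 and 0.32 in 1KI9. CHD4 stands farthest right of the NuRD subunits, at 1.0574 in 1D5 and 1.01 in 1KI9, and genes of the beta globin cluster lie mostly to the left.

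The globins on which these regulators act stayed fetal in every group. Gamma globin, summed over HBG1, HBG2 and the model AC104389.5 that overlaps them, averaged 112600 ± 10200 in 1D5 and 71970 ± 3600 in 1KI9 at day 4, against 199200 ± 3190 in FL (SD, n = 3 each). The adult gene HBB made up 0.0271% and 0.0212% of the sum of HBB and gamma globin in 1D5 and 1KI9, against 0.0857% in FL. HBG1 and HBG2 are nearly identical, so the split of reads between them is uncertain and levels are given for the sum. Of the 5 genes of the beta globin cluster, with HBG1 and HBG2 counted singly, 4 were lower in both clones at day 4 (14.3% of all genes). In expansion 1 was lower in both, HBE1 (8.98% of all genes).

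For the 4 regulators whose group means spanned at least 1 log2 unit, the genes with the most similar pattern were sought by the root-mean-square distance between 6 centred group means. LIN28B was nearest to PDSS1 (distance 0.06), MCM4 (0.08) and TFAM (0.08). IGF2BP1 was nearest to PPM1E, NME1 and HSPA4L (0.08 each), IGF2BP3 to SMIM15 (0.04), WDR75 (0.05) and ADK (0.06), and BCL11A to FBL (0.10), SFXN2 (0.11) and MAD2L1 (0.11). The spans were 2.93 for BCL11A, 2.77 for LIN28B, 2.48 for IGF2BP1 and 1.64 for IGF2BP3.

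Promoters are shown for LIN28B and IGF2BP3, which moved together across conditions, because the clones differ in GATA1, and GATA factors bind such words. The RefSeq windows (GRCh38.p14) hold 300 bases around a gene's start. No window was available for IGF2BP1, so its promoter was not searched. Both strands were searched for AGATAA and TGATAA, the core words bound by GATA factors, and for CACGTG, the E-box that MYC and related factors bind. GATA words occurred in 16.3% and the E-box in 7.26% of 35116 promoters. Of the LIN28B starts, chr6:104956857-104957156 on the plus strand held 2 GATA words and 1 E-box, and chr6:104940715-104941014 held none. IGF2BP3, at chr7:23470442-23470741 on the minus strand, held 2 E-boxes and no GATA word. Of 5 SOX6 starts, 2 held a GATA word each, chr11:16476339-16476638 and chr11:16408807-16409106 on the minus strand. Of 5 NFIX starts, chr19:12995225-12995524 on the plus strand held an E-box. None of the BCL11A, ZBTB7A, MBD2 or NFIA starts held any of these words. The capitals below mark them.
LIN28B: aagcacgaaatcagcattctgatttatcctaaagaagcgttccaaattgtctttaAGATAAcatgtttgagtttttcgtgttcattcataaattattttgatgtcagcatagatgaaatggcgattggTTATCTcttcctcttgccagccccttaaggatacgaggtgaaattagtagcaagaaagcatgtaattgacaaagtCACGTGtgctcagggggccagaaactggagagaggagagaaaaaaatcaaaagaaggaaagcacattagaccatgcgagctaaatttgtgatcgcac
IGF2BP3: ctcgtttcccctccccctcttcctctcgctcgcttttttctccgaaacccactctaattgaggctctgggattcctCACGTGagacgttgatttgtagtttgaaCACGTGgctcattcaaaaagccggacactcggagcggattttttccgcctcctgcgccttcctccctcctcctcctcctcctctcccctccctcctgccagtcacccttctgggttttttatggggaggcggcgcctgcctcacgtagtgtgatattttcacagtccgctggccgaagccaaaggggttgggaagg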

How the data were processed

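Poly(A) RNA of 18 HUDEP1 libraries was analysed from 1 table of gene values deposited by the authors. Per the submitters' processing notes, the tools were Trim Galore 0.60, STAR 2.7 and RSEM 1.31 with build hg38 (GRCh38.p12). The authors deposited the expansion values as TPM. The day-4 values the authors deposited are a TPM-like signal whose scaling no source here states, so the test planned for TPM was kept on the log scale. Neither unit keeps read depth, so no counting intervals were computed. Entries listed at 0 throughout one condition were left out of comparisons that use it (68 in expansion, 27 at day 4).

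Values were analysed as log2(value + 1) with limma 3.58.1 (R 4.3.3), with 1 mean per group, moderated variances following expression level, and Benjamini-Hochberg adjustment over all tested genes of each comparison (11110 in all). The fit was tested on simulated data. P-values measure the spread between libraries, which may be technical. Alternatives were another pseudocount (0.1), no filter, scaling by median of ratios or by sums without globins and mitochondrial genes, a fit of the compared libraries only, a replicate block, and leaving out each replicate. Members and gene lists were chosen with earlier results of these data known, and the ratios within libraries and sequence searches after values were seen. Beside the regulators, list genes called in both clones with the largest mean differences are named, at most 4 per list and condition. Sequences come from GENCODE release 29 and RefSeq tables.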

Additional observations from a re-analysis of the deposited data

Results flagged for a closer look

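The contrast of the GATA1s clones with FL differed between day 4 and expansion for 4 of the 9 regulators, by the limma test of that difference itself. Of all genes, 65.1% passed the same test, so the count does not set the regulators apart. It was 0.83 for IGF2BP1, 0.60 for LIN28B, 0.49 for IGF2BP3 and -0.71 for SOX6 (log2), against 0.21 for the median gene. SOX6 lay between 0.23 and 1.72 in all 18 libraries, where the log2(value + 1) scale understates change. Groups held 3 libraries, too few to look for single outlying samples.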

How the results depend on the processing

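The 90 tests of single regulators gave 1188 values under the alternatives. Of these, 1074 kept direction and side of the threshold, 31 lost a call, 36 gained one and 47 changed sign, 43 of them with a call in neither fit, 17 under another scaling and 30 with a replicate left out. With median-of-ratios scaling, at day 4 LIN28B (-0.042) and MBD2 (-0.249) in 1D5 against FL, NFIX in 1KI9 against FL (-0.065) and IGF2BP1 in 1KI9 against 1D5 (-0.017) changed sign. So did, in expansion, IGF2BP3 (-0.084), NFIX (-0.083) and MBD2 (-0.009) in 1KI9 against FL and BCL11A (-0.133) and ZBTB7A (-0.158) in 1KI9 against 1D5, and MBD2 at day 4 against expansion in FL (0.362, called) and in genotype by condition (-0.212). Scaled without globins and mitochondrial genes, BCL11A (-0.026) and ZBTB7A (-0.045) in 1KI9 against 1D5 in expansion, MBD2 in genotype by condition (-0.033), and at day 4 against expansion MBD2 in FL (0.282) and 1KI9 (0.015) and SOX6 in 1D5 (0.028) changed sign.

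With replicates left out, values crossed 0 for these results, none of them called. In expansion, ZBTB7A ran from -0.182 to 0.002 in 1D5 and from -0.174 to 0.01 in 1KI9 against FL, and NFIA from -0.062 to 0.005 in 1D5 against FL. In 1KI9 against 1D5 in expansion, BCL11A ran from -0.14 to 0.149, ZBTB7A from -0.013 to 0.039, IGF2BP1 from -0.064 to 0.079, SOX6 from -0.13 to 0.024 and NFIX from -0.058 to 0.06. At day 4, MBD2 ran from -0.013 to 0.155 in 1D5 and from -0.126 to 0.082 in 1KI9 against FL, and in 1KI9 against 1D5 IGF2BP1 ran from -0.033 to 0.096 and MBD2 from -0.187 to 0.006. MBD2 at day 4 against expansion in FL ran from -0.196 to 0.051, and in genotype by condition BCL11A ran from -0.23 to 0.111 and MBD2 from -0.128 to 0.119.

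Of the counts, 1D5 against FL in expansion (2) was 1 when scaled without globins and mitochondrial genes, 0 in a fit of the compared libraries only and 0 to 3 with replicates left out, and the count in both clones in expansion (2) was likewise 1, 0 and 0 to 3. The count for 1KI9 against FL in expansion (2) was 6 with median-of-ratios scaling. For 1KI9 against 1D5, the count of 1 in either condition was 2 with median-of-ratios scaling and 2 with a replicate block, and with replicates left out it was 0 to 2 in expansion and 1 to 2 at day 4. The count in both clones at day 4 (5) was 3 to 5 with replicates left out, 3 without FL replicate 1. For genotype by condition (4) it was 6 with median-of-ratios scaling and 4 to 6 with replicates left out. The cause of these changes was not tested.

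Same-numbered libraries of a condition correlated at -0.152 to 0.429 (median 0.053, 18 pairs), and different-numbered ones at -0.394 to 0.246 (median -0.038, 36 pairs). With 3 replicates per group, these ranges overlap and cannot decide whether the replicate numbers pair the libraries. The replicate block added calls of NFIA in 1KI9 against FL in expansion (adjusted p = 0.0312, for a count of 3), IGF2BP3 in 1KI9 against 1D5 in expansion (0.0405) and NFIA in 1KI9 against 1D5 at day 4 (0.0371), and removed none. The depth is unknown, so the precision of low values such as those of BCL11A at day 4 and SOX6 cannot be stated.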
